A study of Homo sapiens with 4 samples.

Results

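The amino acid response genes that the transcription factor ATF4 is known to control were followed in HepG2 cells treated with melatonin. The set was a list of 49 gene symbols, of which all 49 were found among the 58302 genes listed in each library. The rule used gene names and no measured value, though the list was drawn up with earlier results of these data known. They were read in 6 groups by role, namely 8 transcription factors, 6 feedback and stress effectors, 4 secreted proteins and a receptor, 13 enzymes of amino acid and one-carbon synthesis, 7 amino acid transporters, and 11 tRNA synthetases with the tRNA export factor XPOT. HepG2, labelled WT, is an established human liver tumour line, which the authors describe as hepatocellular carcinoma. Polyadenylated RNA was sequenced after 24 h and after 48 h from cells given either melatonin at 1 mM or its solvent DMSO, which gave 4 libraries, 1 for each condition. All 4 cultures grew in MEM with serum, pyruvate and a supplement of nonessential amino acids, and DMSO was the only control at either time. Whether the medium was renewed between 24 h and 48 h is not given in the sources used here. The comparisons ask how melatonin altered the transcripts at each time, and how they moved with time in each treatment.

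ATF4 is a basic leucine zipper factor at the end of the integrated stress response. Kinases that sense amino acid shortage, misfolded proteins in the endoplasmic reticulum, lack of haem or double-stranded RNA phosphorylate the initiation factor eIF2, which lowers general translation while the ATF4 mRNA is translated more. ATF4 then pairs with C/EBP proteins and switches on genes that make, import and charge amino acids, as well as genes such as DDIT3, TRIB3 and PPP1R15A that temper or end the response. ATF4 protein is set largely by translation and turnover, which mRNA libraries do not measure. In liver cells the same programme includes secreted hormones such as FGF21 and GDF15.

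Levels are given as FPKM, the authors' fragments per kilobase of gene scaled to a library size, which allows genes of different length to be compared. The reads behind each FPKM were recovered as whole numbers, and intervals are 95% exact intervals of those reads, which cover counting error only. With 1 library per condition there was no spread between cultures to compare with, so every difference below compares libraries, and no p-value is given. In bulk RNA, a larger share of expressing cells and more RNA per cell cannot be told apart. The reads on genes ranged from 21616676 to 23086025, and the mitochondrial share fell from 19.96% with DMSO and 16.6% with melatonin at 24 h to 9.77% and 11.9% at 48 h. All 12 hepatocyte markers were at an FPKM of at least 1 in every library and summed to between 11395 and 12332 FPKM. Single markers differed more. At 48 h TTR was at 50.6 FPKM with DMSO and 256 FPKM with melatonin, and AFP at 1902 and 782 FPKM. In the 4 lists for other cell types the leukocyte gene LYZ and the duct genes SOX9 and EPCAM were well expressed. PTPRC, the defining leukocyte gene, had at most 1 read. The fibroblast gene PDGFRB was at 1.81 and 0.774 FPKM (DMSO and melatonin) at 24 h and at 3.58 and 4.33 FPKM at 48 h. The leukocyte gene CD14 reached 1.10 FPKM with DMSO at 24 h, and the remaining genes of these lists stayed below an FPKM of 1.

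Fold changes are log2((FPKM + 1)/(FPKM + 1)) between a pair of libraries, a scale that understates changes of genes near an FPKM of 1. A gene was counted in a comparison when either library reached an FPKM of 1, and it was called changed at 2-fold, a log2 fold change of 1 or more or of -1 or less. Of the 49 members, 47 reached an FPKM of 1 in at least 1 library. The exceptions were CHAC1, an enzyme that degrades glutathione, and the hormone FGF21. CHAC1 had 1, 10, 16 and 5 reads and FGF21 had 0, 4, 11 and 2 reads (DMSO and melatonin at 24 h, then DMSO and melatonin at 48 h). The 0 reads of FGF21 allow up to 0.125 FPKM by a floor of 3 reads, and their 95% exact interval reaches 0.153 FPKM. For both genes the DMSO 48 h library held the most reads, and they were left out of the counts that follow.

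**Figure D1:**
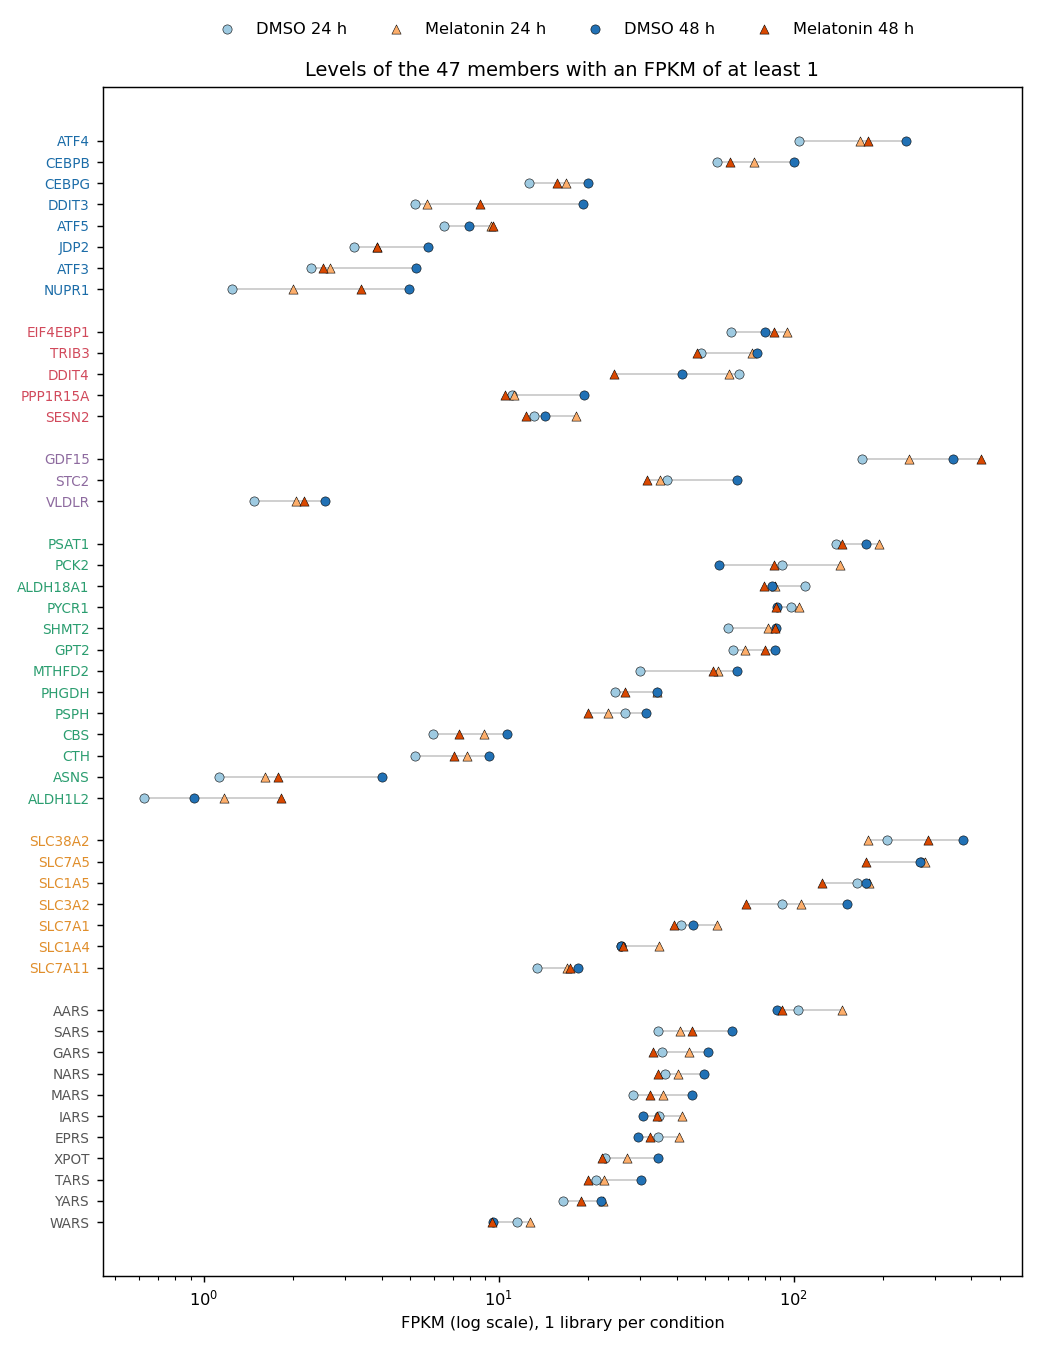
FPKM of the 47 members that reached an FPKM of 1, on a log axis, with 1 point per library (circles for DMSO, triangles for melatonin, light for 24 h and dark for 48 h) and gene names coloured by role group. The DMSO 48 h library held the highest value for 28 members and the DMSO 24 h library the lowest for 24, which on the TPM scale were 35 and 41.

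Of the 47 members, 28 were highest in the DMSO 48 h library, where 33.1% of all genes were, and 24 were lowest in the DMSO 24 h library, where 24.7% were. The melatonin 48 h library was the lowest for 17 members, where 22.1% of all genes were lowest in it. These counts across times depend on the scale. When the values of each library were rescaled to the same total (TPM), 35 members were highest in DMSO 48 h (48.9% of all genes), 41 lowest in DMSO 24 h (55.6%) and only DDIT4 and SLC7A5, or 2 members, lowest in melatonin 48 h (8.52%). The order of libraries of different times given below for single genes is that of FPKM. The most abundant by their highest value were GDF15, SLC38A2, SLC7A5 and ATF4, and the least abundant of the 47 were ALDH1L2, VLDLR and ASNS.

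Most members were slightly higher with melatonin than with DMSO at 24 h and lower with melatonin at 48 h. At 24 h, 42 of 47 members were higher with melatonin, where 53.5% of all genes tested and 57.9% of protein-coding genes were, and the median log2 fold change was 0.30 against 0.02 over all genes. None reached 2-fold in either direction at 24 h, where 1.42% of all genes were at least 2-fold higher and 2.93% at least 2-fold lower. At 48 h, 38 of 47 were lower with melatonin, where 52.5% of all genes and 51% of protein-coding genes were, and the median was -0.35 against -0.02. SLC3A2 and DDIT3 were at least 2-fold lower at 48 h, where 3.32% of all genes and 1.36% of protein-coding genes were, and no member was at least 2-fold higher, where 2.39% were. The 2 comparisons share no library. In 33 of 47 members, or 70.2%, melatonin was higher at 24 h and lower at 48 h, a sequence seen in 19.6% of the 12775 genes tested at both times, and no member showed the reverse order, which 13.8% of genes did.

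With the smaller threshold of 1.5-fold, 4 members were higher at 24 h (MTHFD2, ATF4, PCK2 and EIF4EBP1), where 4.02% of all genes were. At 48 h, 13 were at least 1.5-fold lower, where 10% of all genes were, and PCK2 alone was higher, where 8.62% of genes were. Among protein-coding genes alone the shares were 1.92% higher at 24 h, and 6.36% lower and 6.78% higher at 48 h. The counting interval of the melatonin over DMSO ratio lay above 1 for 39 members at 24 h, where 28.2% of all genes had one above 1, and below 1 for 35 at 48 h, where 33.1% did. It lay above 1 at 24 h and below 1 at 48 h for 27 of 47 members and for 4.85% of all genes. The members are well expressed, with at least 100 reads in every library for 45 of 49, so their intervals are narrow.

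**Figure D2:**
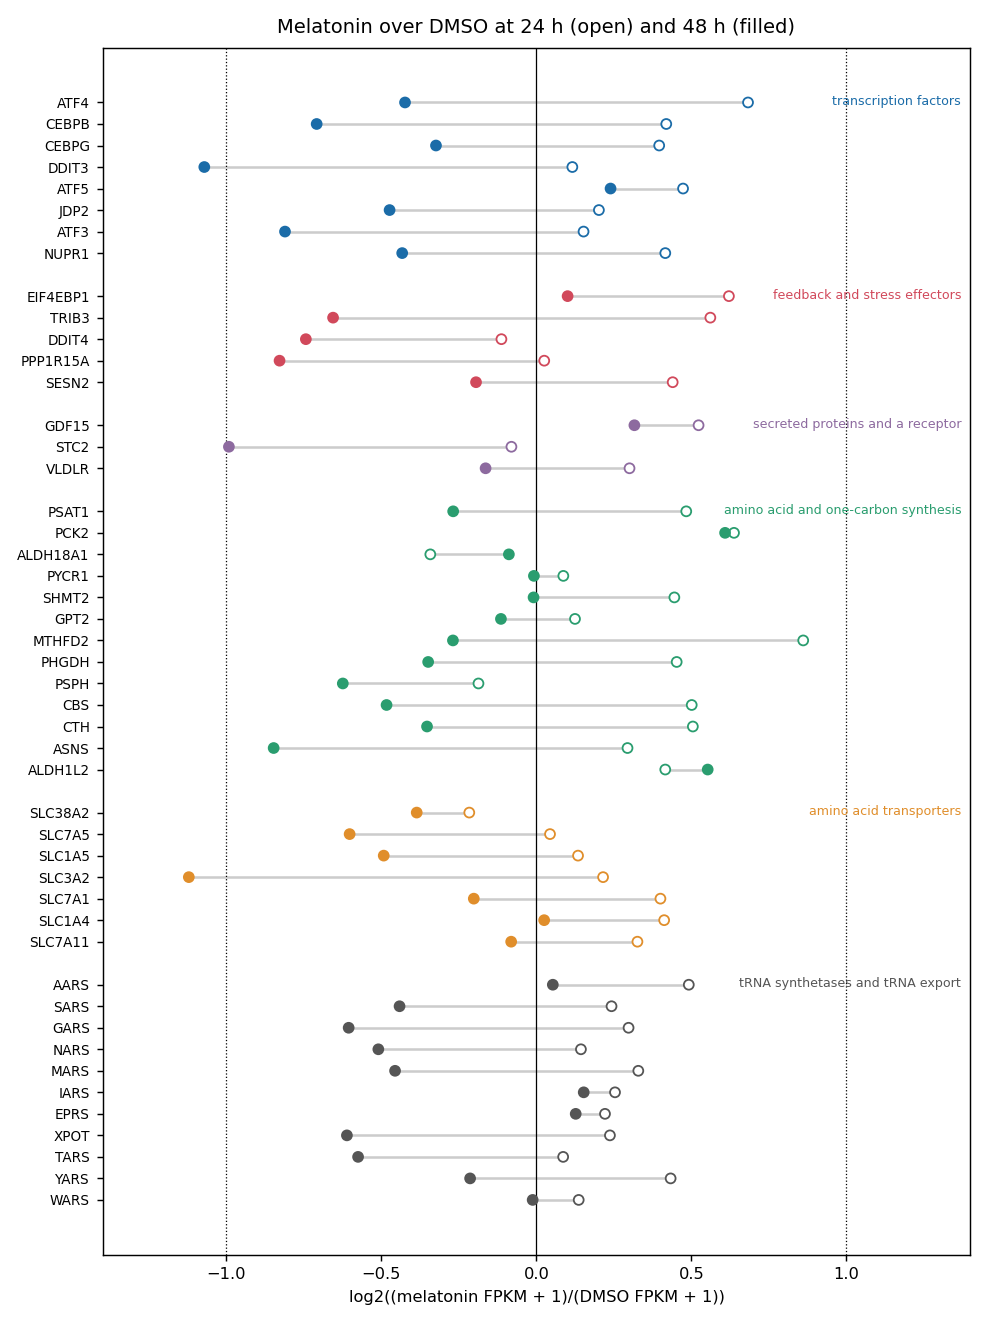
Log2 fold change of melatonin over DMSO at 24 h (open circles) and 48 h (filled circles) for the 47 members, grouped and coloured by role, with a grey line joining the 2 times and dotted lines at 2-fold. For 45 of 47 members the filled circle lies to the left of the open one, and SLC3A2 and DDIT3 lie beyond the dotted line at 48 h.

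The melatonin effect was lower at 48 h than at 24 h for 45 of 47 members, where 52.9% of all genes were lower, and the exceptions were ALDH1L2 and ALDH18A1. The median of the difference (log2 fold change at 48 h minus that at 24 h) was -0.65 for the members and -0.02 for all genes tested at both times. The difference reached 2-fold for 7 members, where it did for 1.53% of all genes, and these were ATF4, DDIT3, CEBPB, TRIB3, ASNS, MTHFD2 and SLC3A2. It did so for 17 members with TPM, where 3.78% of all genes did, and for 10 with a pseudocount of 0.1, where 2.9% did. Whether these differences exceed the variation between cultures could not be tested.

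**Figure D3:**
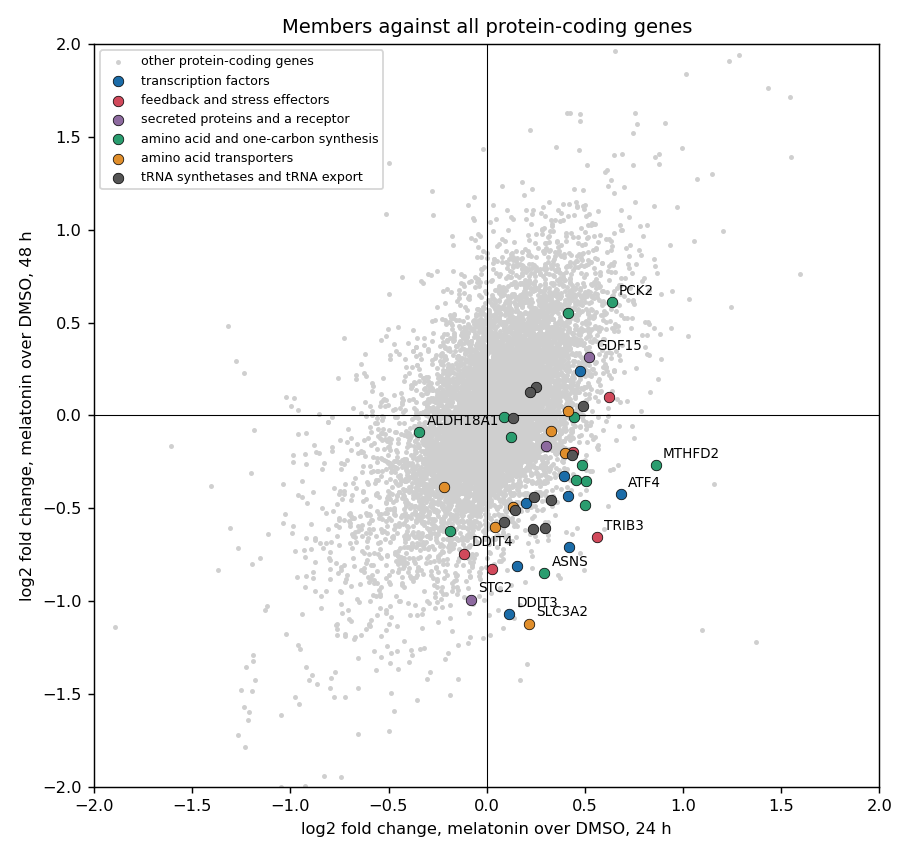
Log2 fold change of melatonin over DMSO at 24 h (x axis) against 48 h (y axis) for the 10312 protein-coding genes tested at both times (grey) and the members (coloured by role). Most coloured points lie in the lower right, higher at 24 h and lower at 48 h, and 13 genes lie outside the axes.

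The element that ATF4 and a C/EBP partner are known to bind was looked for in the promoters of the members. The RefSeq promoters of GRCh38.p14, from 250 bases before to 50 bases after each start, held 40 of the 49 members. The letters TGATGCA or TGATGAA stood on either strand in the promoter of 15 of those 40 genes, or 37.5%, and of 6.96% of all 27305 genes in the table. Counted by promoter, the shares were 23.8% of 63 and 5.69% of 35116, since members had more listed starts per gene (1.57 against 1.29). With TGATGCA alone, 12 members held it, or 30%, against 3.24% of all genes. By role, a match was found in 6 of 10 genes of the tRNA group, 3 of 6 transporters, 2 of 7 transcription factors, 2 of 8 synthesis enzymes, 1 of 5 effectors and 1 of 4 of the secreted group. Matches that lay wholly before the start are printed below for 9 genes in 30-base windows on the gene's strand, with the motif in capitals. A motif on the other strand reads as TGCATCA or TTCATCA.
CEBPG, chr19:33374060-33374089, plus strand: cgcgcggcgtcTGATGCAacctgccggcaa
JDP2, chr14:75427995-75428024, plus strand: atagccggggcTGATGCAacccgtcccgcc
CHAC1, chr15:40953252-40953281, plus strand: tcccctgccgtTGCATCActcctgccaggt
FGF21, chr19:48755460-48755489, plus strand: aacaccaggatTGCATCAgggaggaggagg
ASNS, chr7:97872458-97872487, minus strand: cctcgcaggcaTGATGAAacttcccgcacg
PHGDH, chr1:119711684-119711713, plus strand: tcagataTGCATCAgctagtcagcgtaaat
SLC1A5, chr19:46784893-46784922, minus strand: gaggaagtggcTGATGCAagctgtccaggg
AARS, chr16:70289674-70289703, minus strand: tttctcgcagtTGCATCAgccaagttagag
GARS, chr7:30594835-30594864, plus strand: tacgcggcgatTTCATCAtgctccgagccg
The ASNS window held TGATGAA 68 bases before the start, and the CEBPG window held TGATGCA 42 bases before it. In SLC7A1, SLC1A4, MARS, NARS and TARS the match lay at or after the start. The median log2 fold changes of members with and without a match were 0.30 (13 genes tested) and 0.24 (25 genes tested) at 24 h, and -0.46 and -0.42 at 48 h. A match is a string of letters and was not tested as a binding site in these cells. The members were listed as genes that ATF4 is known to control, so their larger share is not separate evidence. The 27305 genes were not limited to expressed or protein-coding genes.

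Among the transcription factors, all 8 were higher with melatonin at 24 h and 7 of 8 were lower with melatonin at 48 h. Their median log2 fold changes were 0.41 and -0.45. ATF4 (chr22:39519695-39522685 of hg38, plus strand) was the most abundant of them. It was at 104 FPKM (interval 101 to 107) with DMSO and 167 FPKM (164 to 171) with melatonin at 24 h, and at 240.5 FPKM (236 to 245) with DMSO and 179 FPKM (175 to 183) with melatonin at 48 h. In FPKM the 2 melatonin libraries were thus close to each other and lay between the 2 DMSO libraries. Melatonin over DMSO was a ratio of 1.61 (1.55 to 1.67) at 24 h, a log2 fold change of 0.68, and of 0.744 (0.725 to 0.764) at 48 h, a log2 fold change of -0.42.

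DDIT3, or CHOP, is a C/EBP relative that ATF4 induces and that can promote cell death. It was at 5.21 and 5.72 FPKM with DMSO and melatonin at 24 h, and at 19.3 and 8.64 FPKM at 48 h. The DMSO 48 h library stood above the other 3, and the ratio at 48 h was 0.449 (0.384 to 0.523), a log2 fold change of -1.07, while at 24 h its interval (0.859 to 1.41) included 1. DDIT3 (chr12:57516588-57520517, minus strand) overlaps the end of MARS on the opposite strand. MARS had 3682 to 6931 reads per library against 121 to 535 for DDIT3, and since it is not stated whether strand was counted, reads in the shared stretch cannot be told apart.

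CEBPB, a liver-enriched partner of ATF4, was at 54.8, 73.5, 99.96 and 60.8 FPKM (DMSO and melatonin at 24 h, then DMSO and melatonin at 48 h, the order used from here on). As with ATF4, the DMSO 24 h library was the lowest and the DMSO 48 h library the highest, with both melatonin libraries between them. NUPR1, a small chromatin-associated stress protein, was at 1.25, 2.00, 4.96 and 3.41 FPKM. Both 48 h libraries of NUPR1 stood above both 24 h libraries. ATF5, a relative of ATF4 under the same translational control, was at 6.49, 9.40, 7.93 and 9.54 FPKM. It was the transcription factor that was higher with melatonin at both times, with ratios of 1.45 (1.26 to 1.66) and 1.20 (1.07 to 1.35), and it overlaps NUP62 on the opposite strand, which had 1032 to 1228 reads against 352 to 626. ATF3, CEBPG and JDP2 ranged from 2.31 to 20.01 FPKM and were each highest in the DMSO 48 h library. For ATF3, which is induced in many stresses, the interval of the ratio at 24 h (0.945 to 1.42) included 1, and the ratio at 48 h was 0.487 (0.414 to 0.572).

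The feedback and stress effectors had 4 of 5 tested members higher with melatonin at 24 h and 4 of 5 lower at 48 h, with medians of 0.44 and -0.66. TRIB3, a pseudokinase that binds ATF4 and limits its activity, was at 48.5, 72.1, 74.8 and 47.1 FPKM. The melatonin 24 h and DMSO 48 h libraries were the high ones, and the log2 fold change was 0.56 at 24 h and -0.66 at 48 h. EIF4EBP1, the inhibitor of cap-dependent translation 4E-BP1, was at 61.2, 94.6, 79.6 and 85.5 FPKM. The DMSO 24 h library was the lowest, and the log2 fold changes of 0.62 at 24 h and 0.10 at 48 h were the highest of this group. PPP1R15A, or GADD34, directs a phosphatase to eIF2 and so ends the response. It was at 11.0, 11.3, 19.4 and 10.5 FPKM, so that only the DMSO 48 h library stood apart, and its ratio at 48 h was 0.540 (0.493 to 0.592). SESN2, a leucine sensor that restrains mTORC1, was highest in the melatonin 24 h library at 18.2 FPKM and between 12.4 and 14.3 FPKM in the others.

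DDIT4, or REDD1, an inhibitor of mTORC1 that is also induced by hypoxia and glucocorticoids, did not follow this order. It was at 65.2, 60.2, 41.7 and 24.5 FPKM. Both 48 h libraries were below both 24 h libraries, and melatonin was below DMSO at each time, with ratios of 0.923 (0.873 to 0.977) at 24 h and 0.587 (0.545 to 0.633) at 48 h. The sign at 24 h turned to 0.06 on the TPM scale.

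In the secreted group, GDF15, a stress hormone that acts on appetite through the hindbrain, was at 170.3, 245, 345 and 429.7 FPKM. It was higher with melatonin at both times and higher at 48 h in both treatments, and its ratio to DMSO was 1.44 (1.4 to 1.48) at 24 h and 1.25 (1.22 to 1.27) at 48 h. STC2, a secreted glycoprotein induced by endoplasmic reticulum stress, was at 37.2, 35.1, 64.2 and 31.8 FPKM. Its DMSO 48 h library alone stood high, the log2 fold change at 48 h was -0.99, just inside the 2-fold threshold, and the small difference at 24 h (-0.08) became 0.09 on the TPM scale. VLDLR, the receptor for very low density lipoprotein, was between 1.48 and 2.57 FPKM, with log2 fold changes of 0.30 and -0.16.

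Enzymes of amino acid and one-carbon synthesis were higher with melatonin in 11 of 13 cases at 24 h and lower in 11 of 13 at 48 h, with medians of 0.44 and -0.27. MTHFD2, the mitochondrial enzyme that oxidizes one-carbon units on folate, was at 30.1, 55.4, 64.3 and 53.2 FPKM. Its DMSO 24 h library was the low one and the other 3 lay nearer to each other. The ratio of melatonin to DMSO was 1.84 (1.76 to 1.93) at 24 h, the highest log2 fold change of any member at that time (0.86), and 0.827 (0.798 to 0.857) at 48 h. ASNS, asparagine synthetase, is the textbook target of ATF4 and its promoter window is printed above. It was low, at 1.12, 1.605, 4.002 and 1.78 FPKM, from 92, 145, 391 and 176 reads. The DMSO 48 h library stood above the other 3, and the ratio at 48 h was 0.445 (0.370 to 0.532), though on the log2(FPKM + 1) scale the change was -0.85. An overlapping processed transcript on the same strand had 14 to 85 reads per library, up to 28.3% of those of ASNS.

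The serine pathway differed within itself. PSAT1, the aminotransferase of serine synthesis, was at 139, 195, 176 and 146 FPKM, and PHGDH, the first enzyme of that pathway, was at 24.8, 34.2, 34.4 and 26.8 FPKM. Both were high in the melatonin 24 h and DMSO 48 h libraries. PSPH, the phosphatase of the final step, was lower with melatonin at both times, at 26.8, 23.5, 31.5 and 20.1 FPKM. SHMT2, which makes glycine from serine in mitochondria, had a log2 fold change of 0.44 at 24 h and of -0.01 at 48 h, and the latter changed sign between scalings. CBS and CTH, the enzymes that turn homocysteine into cysteine, had log2 fold changes of 0.50 each at 24 h and of -0.48 and -0.35 at 48 h. The near-identical copy CBSL had 254 reads in the DMSO 24 h library and 19 to 43 in the others, so the value of CBS at 24 h is uncertain.

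PCK2, the mitochondrial phosphoenolpyruvate carboxykinase, was higher with melatonin at both times. It was at 91.5, 143, 55.7 and 85.5 FPKM. Melatonin over DMSO was a ratio of 1.56 (1.52 to 1.61) at 24 h and of 1.53 (1.48 to 1.59) at 48 h, and both 48 h libraries were below the 24 h library of the same treatment. ALDH1L2, a mitochondrial folate dehydrogenase, was also higher at both times, at 0.628, 1.17, 0.927 and 1.83 FPKM, but it overlaps C12orf45 on the opposite strand, which had 392 to 584 reads against 98 to 345. ALDH18A1, which starts proline synthesis from glutamate, was at 109, 86.1, 84.6 and 79.5 FPKM. Its DMSO 24 h library was the high one (DMSO 48 h on the TPM scale), and the log2 fold change of melatonin was -0.34 at 24 h, the lowest of any member, and -0.09 at 48 h. PYCR1, the last enzyme of that pathway, differed little, with log2 fold changes of 0.09 and -0.01. GPT2, the mitochondrial alanine aminotransferase, had 0.12 and -0.11.

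Transporters had the smallest median of the 6 groups at 24 h (0.21), with 6 of 7 higher with melatonin, and 6 of 7 were lower at 48 h (median -0.39). SLC3A2 (chr11:62856102-62888875, plus strand), or 4F2hc, is the heavy chain that carries SLC7A5 and SLC7A11 to the plasma membrane. It was at 91.0, 106, 151 and 69.0 FPKM. The DMSO 48 h library was the highest and the melatonin 48 h library the lowest (DMSO 24 h on the TPM scale), and melatonin over DMSO at 48 h had a ratio of 0.456 (0.444 to 0.468) and a log2 fold change of -1.12, the lowest of any member. SLC7A5, or LAT1, its partner in leucine uptake, was at 269, 278, 267 and 176 FPKM. The first 3 libraries were alike in FPKM and melatonin 48 h was the lowest, also on the TPM scale, with a ratio of 0.657 (0.645 to 0.670). SLC7A11, or xCT, the cystine carrier that pairs with the same heavy chain, ranged from 13.4 to 18.5 FPKM, and its ratio at 48 h was 0.942 (0.900 to 0.985). The intervals of these 3 ratios at 48 h do not overlap.

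SLC38A2, or SNAT2, a carrier of small neutral amino acids that adapts to amino acid supply, was at 207, 178, 374 and 286 FPKM. It was lower with melatonin at both times and higher at 48 h in both treatments. SLC1A4, which carries alanine, serine and cysteine, was at 25.9, 34.8, 25.9 and 26.3 FPKM. Its melatonin 24 h library alone stood above the others, with a ratio of 1.34 (1.28 to 1.4). SLC1A5, the glutamine carrier ASCT2, was at 163, 179, 176 and 125 FPKM, and like SLC7A5 it was lowest in the melatonin 48 h library, though on the TPM scale in DMSO 24 h. SLC7A1, the cationic amino acid carrier, had log2 fold changes of 0.40 and -0.20.

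All 11 genes of the tRNA group were higher with melatonin at 24 h, within a narrow range of log2 fold changes from 0.09 to 0.49, and 8 of 11 were lower at 48 h. The medians were 0.24 and -0.44. XPOT, which exports tRNAs from the nucleus, was at 23.0, 27.3, 34.6 and 22.3 FPKM. The DMSO 48 h library was the highest, and the log2 fold change at 48 h was -0.61, the lowest of the group. TARS, the threonine enzyme, was at 21.3, 22.6, 30.4 and 20.1 FPKM, and it had the smallest change of the group at 24 h, a ratio of 1.06 (1.01 to 1.13). SARS, GARS, NARS, MARS and YARS were likewise higher with melatonin at 24 h and lower at 48 h, with log2 fold changes from -0.61 to -0.21 at 48 h. AARS differed from these. It is the alanine enzyme and the most abundant of the group, and it was at 103, 146, 87.7 and 91.0 FPKM. Its melatonin 24 h library alone stood high, and its ratio at 48 h was 1.04 (1.01 to 1.07). IARS, the isoleucine enzyme, was at 34.9, 41.8, 30.8 and 34.4 FPKM and had the highest log2 fold change of the group at 48 h (0.15). EPRS, the enzyme for glutamate and proline, was also higher with melatonin at both times, and WARS had values of 0.14 and -0.01.

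In all, 9 of 47 members were higher with melatonin at both times (ATF5, EIF4EBP1, GDF15, ALDH1L2, PCK2, SLC1A4, AARS, EPRS and IARS), where 34.5% of all genes were. Another 5 were lower at both times (DDIT4, STC2, PSPH, ALDH18A1 and SLC38A2), where 32% of all genes were. Several of these signs rest on small values at 48 h. With the library sizes summed from all reads or from non-mitochondrial reads, or after centring on the median gene, SHMT2, PYCR1 and WARS moved to the higher side at 48 h, which left 30 members higher at 24 h and lower at 48 h. On the TPM scale, AARS and SLC1A4 moved to the lower side at 48 h and STC2 and DDIT4 to the higher side at 24 h, and 37 members then had that order, where 35.4% of all genes did.

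In the DMSO libraries most members were higher after 48 h than after 24 h. DMSO at 48 h was above DMSO at 24 h for 36 of 46 members tested, where 50.3% of all genes were, with a median log2 fold change of 0.50 against 0.00 over all genes. At least 2-fold higher at 48 h were 6 members, where 3.5% of all genes and 1.65% of protein-coding genes were. These were DDIT3 (1.71), NUPR1 (1.41), ASNS (1.24), ATF4 (1.20), MTHFD2 (1.07) and GDF15 (1.01). No member was at least 2-fold lower, where 4.24% of all genes were. At 1.5-fold, 19 were higher, where 11.2% of all genes were, and PCK2 (-0.70) and DDIT4 (-0.63) were lower, where 12.6% were. The ratio of ATF4 between the DMSO libraries was 2.32 (2.24 to 2.39), and that of DDIT3 was 3.70 (3.03 to 4.55).

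Between the melatonin libraries 8 of 47 members differed by 1.5-fold or more, against 21 of 46 between the DMSO libraries. Genes at large also moved less often with melatonin, where 6.76% rose and 6.05% fell by that much, against 11.2% and 12.6% with DMSO. Melatonin at 48 h was above melatonin at 24 h for 13 of 47 members, where 45.1% of all genes were, and below it for 34, where 54.9% were, with a median of -0.16 against -0.04. The sign of this median changed to 0.10 on the TPM scale, where the median of all genes was 0.21. DDIT4 was the only member that changed 2-fold, at -1.26, where 1.71% of all genes were at least 2-fold lower. At 1.5-fold, GDF15 (0.81) and SLC38A2 (0.68) were higher, where 6.76% of all genes were, and 6 were lower, where 6.05% were. ATF4 had a ratio of 1.07 (1.04 to 1.10) between the melatonin libraries, and MTHFD2 one of 0.959 (0.924 to 0.996). Both ratios are of FPKM and depend on the scale. These time comparisons use the same 4 libraries as the melatonin comparisons, so they are not separate evidence. The DMSO 24 h library was the lowest and the DMSO 48 h library the highest for 18 of 47 members, or 38.3%, where 11.1% of all genes had that order, and on the TPM scale for 31 members, where 28.9% did.

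**Figure D4:**
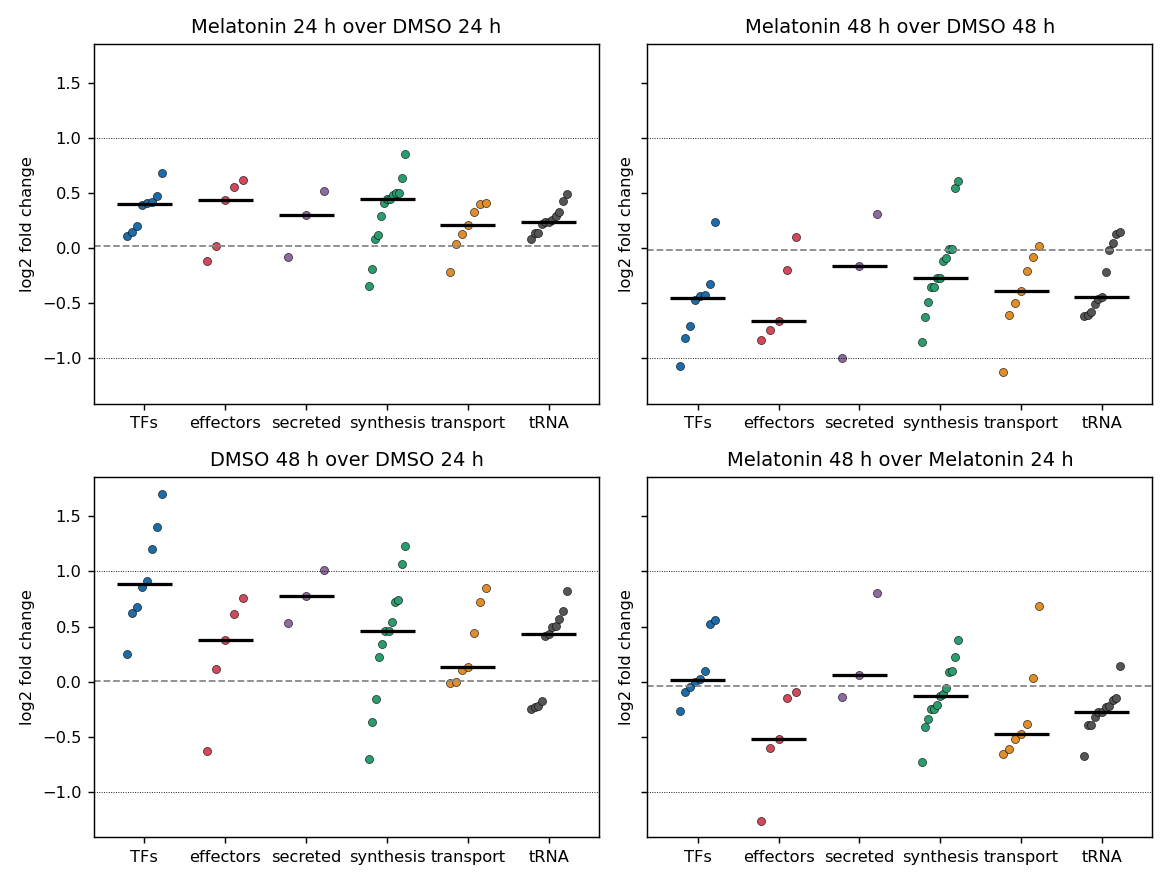
Log2 fold change of each tested member by role group in the 4 comparisons (1 point per gene), with a black bar at the group median, a dashed line at the median of all genes tested and dotted lines at 2-fold. In DMSO over time the transcription factors have the highest median (0.88), and with melatonin over time the transporters (-0.47) and effectors (-0.52) have the lowest.

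Set side by side, every role group had a positive median of melatonin over DMSO at 24 h and a negative one at 48 h. The groups differed in their time courses. The transcription factors were all higher in DMSO at 48 h than at 24 h, where 50.3% of all genes were, with a median of 0.88. Of these 8, 7 were at least 1.5-fold higher, where 11.2% of all genes were. The secreted group had a median of 0.77 (3 of 3 higher), synthesis enzymes 0.46 (9 of 12 higher), the tRNA group 0.43 (7 of 11), the effectors 0.38 (4 of 5) and the transporters 0.13 (5 of 7). Between the melatonin libraries, the medians were 0.01 for the transcription factors, -0.13 for synthesis (0.12 on the TPM scale), -0.28 for the tRNA group and -0.47 for the transporters. The medians of all groups over time depend on the scale. On the TPM scale the median of all genes was 0.47 between the DMSO libraries and 0.21 between the melatonin libraries. The difference of the melatonin effects between times had medians of -0.91 for the transcription factors, -0.45 for synthesis, -0.60 for the transporters and -0.65 for the tRNA group. The groups hold few genes and overlap widely, and differences between groups were not tested.

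Related genes outside the set were read from lists of the same pathway. Of 16 genes for eIF2 and its kinases, none reached 2-fold with melatonin at either time, and their medians were 0.07 at 24 h and -0.04 at 48 h. Few genes at large did so. At 24 h, 1.42% of all genes were at least 2-fold higher and 2.93% at least 2-fold lower, and at 48 h 2.39% and 3.32%. The 13 genes of other cytosolic synthetases and their scaffold proteins had medians of 0.02 and -0.02, and again none changed 2-fold. At 24 h, 7 of 13 were higher, where 53.5% of all genes were. At 48 h, 7 of 13 were lower, where 52.5% were. The 17 mitochondrial synthetases had medians of 0.09 and 0.14, with 15 of 17 higher at 48 h, where 6553 of 13805 genes were. AARS2 fell by 1.20 on the log2 scale between the DMSO libraries, the only one of the 17 at least 2-fold lower, where 4.24% of all genes were. Among 11 other ATF, C/EBP and related factors, of which 10 were tested, MAFG, a small MAF partner of NRF2, was at 17.8, 18.6, 39.99 and 18.8 FPKM. Like ATF4 it was highest in the DMSO 48 h library, and its log2 fold change was 0.06 at 24 h and -1.05 at 48 h. It was the only one of the 10 at least 2-fold lower at 48 h, where 3.32% of all genes were.

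Among 12 other amino acid transporters, 2 of 11 tested were at least 2-fold lower with melatonin at 48 h, where 3.32% of all genes were. None was at least 2-fold higher, where 2.39% were. SLC6A9, the glycine carrier GLYT1, was at 8.23, 7.11, 19.2 and 6.12 FPKM. The DMSO 48 h library again stood alone, and the log2 fold change was -0.19 at 24 h and -1.51 at 48 h. SLC7A6, another light chain that pairs with SLC3A2, was at 8.38, 4.52, 14.2 and 5.67 FPKM, and was lower with melatonin at both times (-0.76 and -1.18). Of 11 other nutrient sensors, 8 were tested at 48 h. Only SESN3, a relative of SESN2, was at least 2-fold higher, where 2.39% of all genes were. It was at 0.0824, 0.597, 0.0992 and 1.49 FPKM.

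The scale matters most for the time comparisons. On the TPM scale, in which the values of each library sum to the same total, the median log2 fold change of all genes moved from 0.02 to 0.19 at 24 h, from 0.00 to 0.47 between the DMSO libraries and from -0.04 to 0.21 between the melatonin libraries. These shifts go with the mitochondrial share, which fell most between the DMSO libraries, and their part in the results was not tested. The median of the members minus the median of all genes moved little. It was 0.28 at 24 h (0.27 to 0.32 over the other settings), -0.33 at 48 h (-0.36 to -0.30), 0.50 between the DMSO libraries (0.47 to 0.54) and -0.13 between the melatonin libraries (-0.16 to -0.11).

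**Figure D5:**
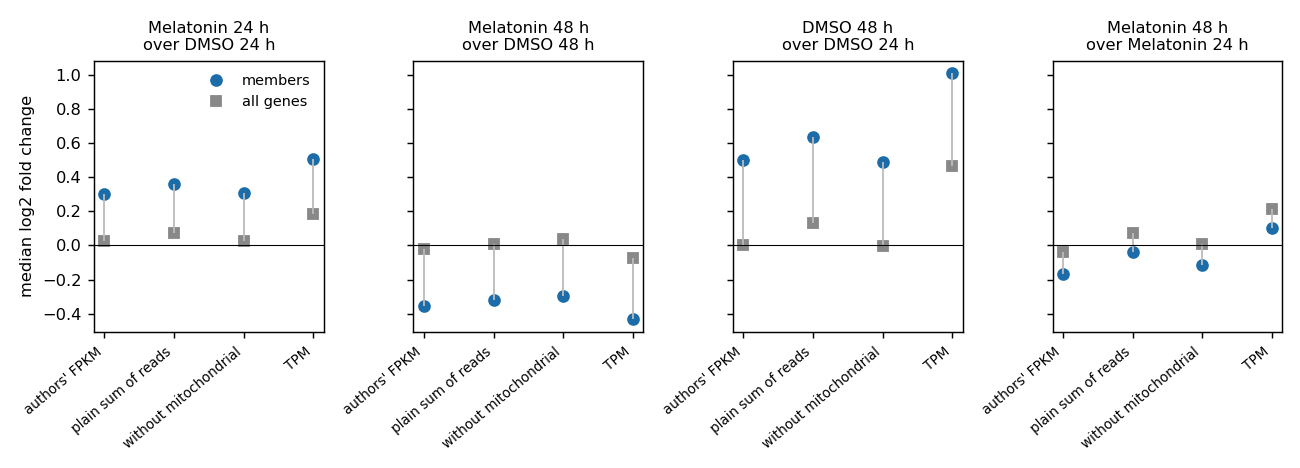
Median log2 fold change of the members (blue circles) and of all genes tested (grey squares) in the 4 comparisons, under 4 scalings of the libraries. The distance between circle and square is similar in each panel, from 0.28 to 0.32 at 24 h and from 0.50 to 0.54 between the DMSO libraries, while the position of both shifts with TPM, and between the melatonin libraries the median of the members is below 0 except with TPM (0.10).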

How the data were processed

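Total RNA of HepG2 cells was purified for polyadenylated RNA and sequenced as paired-end reads. By their methods the authors mapped the reads to hg38 with MapSplice and took expression from Cufflinks, while the submitters' processing notes list Bowtie2 2.0.6, TopHat2 2.0.9, Cufflinks 2.1.1 and Cuffdiff 2.1.1. The authors deposited FPKM per Ensembl gene with the gene length, and no counts. FPKM times gene length was a whole multiple of 1 step per library for 100% of the values above 0 (within 0.01 reads), which gave the reads. The library sizes implied by FPKM were 18357838 (DMSO) and 20283332 (melatonin) at 24 h and 21930408 and 22205042 at 48 h, below the reads on genes, and how they were set is not given in the sources used here. A gene of 1 kb with 3 reads had 0.135 to 0.163 FPKM.

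Groups followed the labels of treatment and time. Fold changes used a pseudocount of 1 and a threshold of 2-fold, over genes that reached an FPKM of 1 in either library compared. Reads gave exact Poisson intervals of levels and exact conditional binomial intervals of ratios (95%). Lists were described by counts and medians beside those of all genes, with no set test. The members and lists were chosen with earlier results of these data known. Values in every library were given for ATF4, for members changed 2-fold in any comparison, and for the highest and lowest member of each role group at 24 h and 48 h. Values of CEBPB, TRIB3, PSAT1, PHGDH, PSPH, SLC7A5 and SLC1A5 were added after being seen. ALDH1L2 was also given in every library, though it met none of these rules. Other members were given as reads, ranges or fold changes. Alternatives were a pseudocount of 0.1, no filter, an FPKM of at least 5, at least 50 reads, a 1.5-fold threshold, centring, TPM, library sizes from all or from non-mitochondrial reads, and protein-coding genes as background. Centred TPM was added after seeing the data. Promoter sequences came from RefSeq (GRCh38.p14), of which 1 window is not reported here, and gene coordinates from the files. Scripts were tested on simulated data and used Python 3.11, numpy 2.4.6, pandas 2.3.3, scipy 1.17.1 and matplotlib 3.10.9. Splicing was not analysed here.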

Additional observations from a re-analysis of the deposited data

Results flagged for a closer look

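For 6 members, the counting interval of the melatonin over DMSO ratio lay above 1 at 24 h and below 1 at 48 h, and the log2 fold changes of the 2 times were at least 2-fold apart. Taken singly, 4.85% of all genes met the first condition, and 1.53% had an effect at least 2-fold lower at 48 h. The share of all genes that met both was not computed. The difference (48 h minus 24 h) was -1.11 for ATF4, -1.13 for CEBPB, -1.22 for TRIB3, -1.14 for ASNS, -1.13 for MTHFD2 and -1.34 for SLC3A2. Each value rests on 1 library per condition, and the difference between times was not tested. DDIT3 was also more than 2-fold apart (-1.19), but the interval of its ratio at 24 h included 1.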

How the results depend on the processing

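No paired analysis was possible because each condition had 1 library and the labels give no replicate numbers. The number of members changed at 24 h was 0, and it was 4 with a 1.5-fold threshold (4.02% of all genes higher) and 1 with TPM, where 2.61% of all genes were higher. At 48 h it was 2, and it was 5 with a pseudocount of 0.1 (6.64% of all genes lower). It was 14 at 1.5-fold (8.62% higher and 10.0% lower), 4 with TPM (6.06% lower) and 3 with TPM centred on the median (5.32% lower). Between the DMSO libraries it was 6, and it was 21 at 1.5-fold (11.2% of all genes higher and 12.6% lower). It was 24 with TPM (15.3% higher) and 9 with library sizes from all reads (4.4% higher). With an FPKM of at least 5 it was 4 (2.99% higher). Between the melatonin libraries it was 1, and it was 8 at 1.5-fold (6.76% of all genes higher and 6.05% lower) and 2 with TPM, where 6.15% were higher and 1.89% lower. Medians of the members moved beyond counting error with TPM, to 0.51 at 24 h, -0.43 at 48 h, 1.01 between the DMSO libraries and 0.10 between the melatonin libraries, where the sign turned from -0.16. Library sizes from all reads gave 0.64 between the DMSO libraries and -0.038 between the melatonin libraries, and an FPKM of at least 5 gave -0.23 for the latter. The median difference of the melatonin effects became -0.89 with TPM, where that of all genes was -0.23. The number of members higher at 24 h and lower at 48 h stayed between 30 and 37, where the share of all genes ranged from 16.0% to 35.4%. The other 73 summary values stayed within 1.5 times the reported count or within counting error of the reported median. Counting error here was 1 log2 half-width per comparison (0.065 to 0.072 for the 4 comparisons), the same for medians and single genes. It was not each gene's own interval, which is wider for genes with few reads and narrower for genes with many. For single genes, 1166 values stayed within this half-width of the reported value and 311 moved beyond it. Depth does not limit most members, but ASNS, ALDH1L2, CHAC1 and FGF21 had under 100 reads in at least 1 library. With 1 library per condition, the variation between cultures is unknown for every value.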
